A study of Mus musculus with 192 samples.

Results

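Of 96 wells, 8 were set apart by their content of Krt8 and Krt18 RNA, and they were compared here with the other wells of similar RNA content. The wells were chambers of 1 microfluidic chip, each meant to capture 1 cell of the R1 line of mouse embryonic stem (ES) cells. A well entered the comparison if it held at least 50000 gene molecules and at most 30000 molecules of spike-in RNA. This left out 45 wells with fewer gene molecules and wells C03 and H03 with more spike-in RNA. Well E02, which had been seen to stand apart in matrix genes, was also left out. Of the remaining 48 wells, 8 held at least 25 molecules of Krt8 and Krt18 together per 10000 gene molecules and are called keratin-high. The other 40 are called other RNA-rich wells. All values below are levels, that is molecules of a gene per 10000 gene molecules of the well, unless molecules are named.

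Both groups came from the same aliquot of R1 cells, so they share line, medium and handling. The cells had been grown in ES1 medium on irradiated mouse embryonic feeder cells, which were left to settle after trypsin treatment. Dead and early apoptotic cells were then removed with a stain and annexin V beads, and the rest was frozen in DMSO. On the chip, each cell was lysed with spike-in RNA and its cDNA amplified by 21 cycles of PCR. The libraries were sequenced as made and again after 9 further cycles, and each of the 96 barcodes belongs to both forms. One culture is 1 sample: the spreads given are between wells, no test was run, and no replicate of the culture checks the differences.

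Keratin filaments are built from pairs of a type II and a type I chain. Krt8 (type II) and Krt18 (type I) form the pair found in simple epithelia and are among the first keratins made in the mouse embryo, in the outer layer of the blastocyst that becomes trophectoderm. ES cells, which resemble the inner cell mass and epiblast, hold little of either in the undifferentiated state, and cultures commonly contain cells that have begun to leave that state.

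The values that chose the wells were as follows. Krt8 stood at 29 in well H07, 30.5 in D08, 28.1 in F12, 21.7 in A09, 21.1 in G10, 18.0 in A06, 14.5 in G12 and 12.6 in A11. In the other RNA-rich wells it had a lowest level of 0.402, a median of 1.22 and a highest of 10.1. Krt18 stood at 43.1 in H07, 37.5 in D08, 23.2 in F12, 26.8 in A09, 24 in G10, 17.6 in A06, 14.7 in G12 and 15.6 in A11, against a lowest level of 0.867, a median of 1.37 and a highest of 10.4 in the other wells. Their sum had a median of 46.8 in keratin-high wells and 2.88 in the other wells. Just inside the threshold lay A11 with 28.2, from 65 Krt8 and 80 Krt18 molecules, and G12 with 29.2. Just outside lay H05 with 20.5, from 147 and 152 molecules, and the next well, C02, had 8.97. No well outside the comparison exceeded 14.7 (G11).

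**Figure D1:**
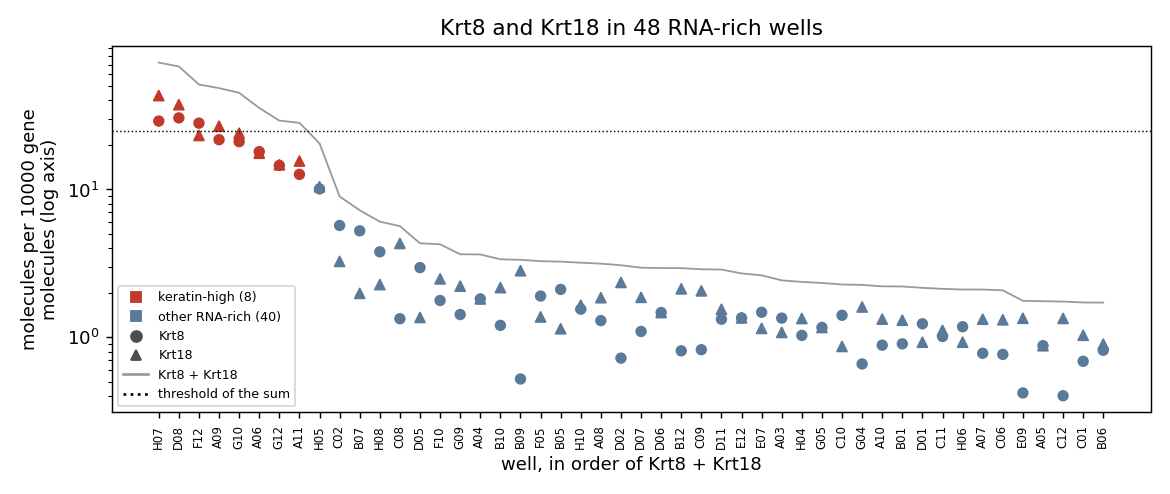
Levels of Krt8 (circles) and Krt18 (triangles) in each of the 48 compared wells, in order of their sum (grey line), in molecules per 10000 gene molecules on a log axis; keratin-high wells are red, other RNA-rich wells blue, and the dotted line is the threshold of 25 for the sum. The 8 keratin-high wells lie at 28.2 or more for the sum, H05 lies at 20.5, and C02 follows at 8.97.

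The groups were alike in the amount of RNA. Gene molecules ranged from 51390 to 155134 (median 114765) in keratin-high wells and from 52812 to 149091 (median 98051) in the other wells. Spike-in molecules ranged from 6603 to 9034 and from 6659 to 9030, which gave medians of 12.8 and 12.7 gene molecules per spike-in molecule. After thinning each well to 50000 gene molecules, a median of 5569 and 5513 genes were detected, and the ranges overlapped (5163 to 6315 and 4883 to 6591). The median share of mitochondrially encoded RNA was 9.59% and 10.5%. Repeat-derived molecules per gene molecule had a median of 0.619 in keratin-high wells and 0.942 in the other wells, with overlapping ranges. All 8 keratin-high wells lay in plate columns 6 to 12, as did 25 of the 40 other wells. Counts within those columns are given in the last section, and the part of plate position in the results was not tested.

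Among the other RNA-rich wells, D02 stood apart from the remaining 39. It lay above every keratin-high well for several genes described below, while its Krt8 and Krt18 summed to 3.07. Its levels were 138 of Tmsb4x, 73.2 of Lgals1, 43.4 of S100a6, 41.9 of Tpm1, 24.8 of Anxa5, 22.2 of Tagln, 21.0 of Vim, 16.3 of Anxa1, 15.9 of Anxa2, 8.49 of Acta2 and 7.77 of B2m.

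Of 24264 genes in the table, 2871 passed the filter on low levels (the 2 group means averaged at least 0.5). A gene was called where the ratio of the mean levels, with 0.1 added to each, was at least 2-fold. By this measure 174 genes (6.06% of those that passed) were higher in keratin-high wells and 59 (2.06%) were lower, and the median log2 fold over all genes that passed was 0.01. Since the wells were chosen by measured values, these counts describe the groups and test nothing. The filter also favours genes that are high in the keratin-high wells: 83 of the 174 had a mean of at least 0.5 in the other wells alone. Among the 2823 genes that met that condition, 83 (2.94%) were higher and 105 (3.72%) lower. The counts by gene list and the promoter sets below use the filter on low levels, so the same limit holds for them. They describe the groups and test nothing. Every keratin-high well lay above every other well for 2 genes (0.0697%), which were Krt8 and Krt18 themselves, and below every other well for no gene (0.0%). For all other genes the 2 groups overlapped.

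**Figure D2:**
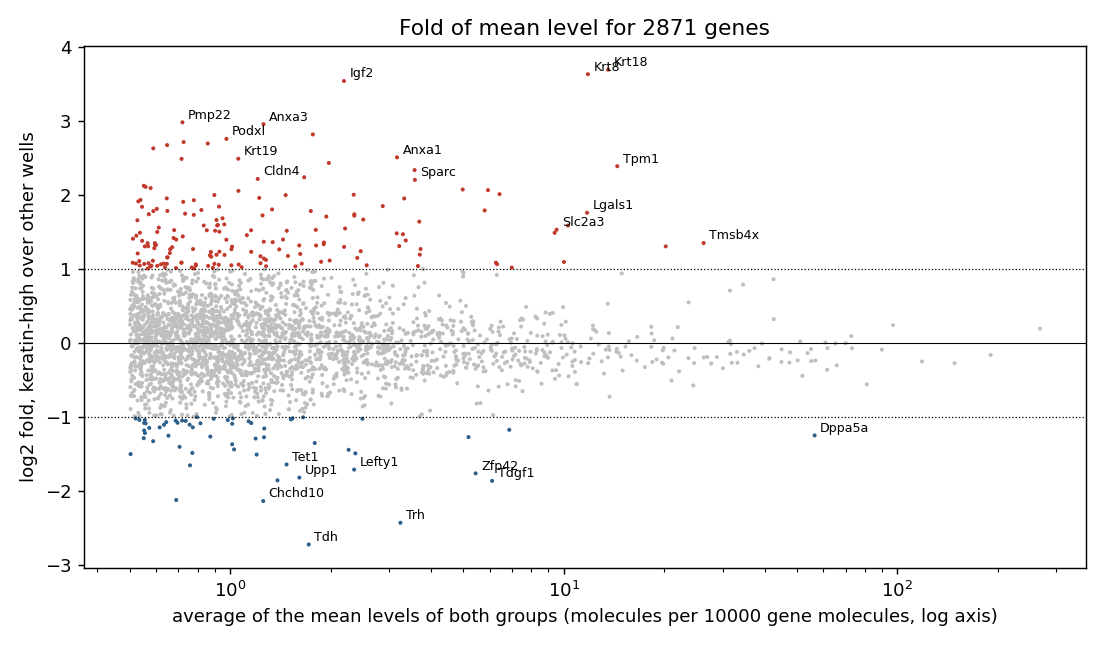
Each point is 1 of 2871 genes, with the average of its mean levels in both groups (molecules per 10000 gene molecules, log axis) against the log2 fold of keratin-high over other RNA-rich wells; dotted lines mark 2-fold, red points are higher and blue points lower by at least that. Igf2 lies at 3.53, below Krt8 and Krt18 that chose the wells, and Tdh lies lowest at -2.72.

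The control regions of 6 genes are shown here because the account below returns to them: the pair that chose the wells, 2 genes with an AP-1 motif and 2 with a CArG box, the motif bound by serum response factor. Each is the RefSeq window from 250 bases before to 50 after an annotated start on GRCm38.p6, written 5′ to 3′ on the gene's own strand. Krt8 (chr15:102004293-102004592, minus strand) and Krt18 (chr15:102027966-102028265, plus strand) are neighbours. Anxa2 lies at chr9:69453433-69453732 (plus), 2200002D01Rik at chr7:29248418-29248717 (minus), Cnn2 at chr10:79988350-79988649 (plus) and this Igf2 start at chr7:142661222-142661521 (minus). Capitals mark the TATA motif and its reverse complement, which overlap, in Krt8, the AP-1 motif in Anxa2 and 2200002D01Rik, and the CArG box in Cnn2 and Igf2. Further matches are left in lower case, such as TATAAA in Anxa2 and the TEAD motif, read as CATTCC, in Igf2. Krt18 held none of the motifs searched.
Krt8: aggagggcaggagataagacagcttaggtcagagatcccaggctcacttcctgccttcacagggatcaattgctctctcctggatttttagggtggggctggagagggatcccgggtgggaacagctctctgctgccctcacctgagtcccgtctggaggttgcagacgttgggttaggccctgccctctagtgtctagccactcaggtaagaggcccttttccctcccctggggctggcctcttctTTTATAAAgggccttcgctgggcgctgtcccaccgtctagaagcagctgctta
Krt18: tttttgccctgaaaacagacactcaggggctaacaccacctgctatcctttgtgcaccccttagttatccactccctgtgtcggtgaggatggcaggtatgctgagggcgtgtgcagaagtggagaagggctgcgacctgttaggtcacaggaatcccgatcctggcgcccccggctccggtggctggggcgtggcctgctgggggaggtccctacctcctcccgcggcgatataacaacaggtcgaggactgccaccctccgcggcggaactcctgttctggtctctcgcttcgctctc
Anxa2: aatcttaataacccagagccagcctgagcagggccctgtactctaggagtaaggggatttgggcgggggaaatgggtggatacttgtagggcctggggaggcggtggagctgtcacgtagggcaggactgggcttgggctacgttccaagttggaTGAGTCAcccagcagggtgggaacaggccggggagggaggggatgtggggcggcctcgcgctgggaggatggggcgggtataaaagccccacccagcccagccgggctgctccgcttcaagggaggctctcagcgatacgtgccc
2200002D01Rik: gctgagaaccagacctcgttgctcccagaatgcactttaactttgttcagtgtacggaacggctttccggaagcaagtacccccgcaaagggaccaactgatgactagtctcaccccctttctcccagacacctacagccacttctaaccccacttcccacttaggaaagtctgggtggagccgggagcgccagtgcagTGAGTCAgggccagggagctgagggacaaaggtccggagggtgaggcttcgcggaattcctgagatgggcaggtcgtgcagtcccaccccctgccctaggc
Cnn2: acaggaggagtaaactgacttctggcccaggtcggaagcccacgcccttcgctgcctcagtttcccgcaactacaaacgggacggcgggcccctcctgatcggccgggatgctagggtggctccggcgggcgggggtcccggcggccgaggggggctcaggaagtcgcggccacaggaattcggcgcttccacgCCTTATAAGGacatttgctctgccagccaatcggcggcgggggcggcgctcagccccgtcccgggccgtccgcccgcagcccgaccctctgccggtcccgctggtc
Igf2: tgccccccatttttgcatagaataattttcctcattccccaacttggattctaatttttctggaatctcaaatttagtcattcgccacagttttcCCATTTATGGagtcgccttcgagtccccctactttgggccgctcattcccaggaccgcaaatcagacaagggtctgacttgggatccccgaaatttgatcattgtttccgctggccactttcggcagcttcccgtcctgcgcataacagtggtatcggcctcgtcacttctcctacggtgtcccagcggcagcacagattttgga

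Other keratins were higher as well. Krt19, a type I keratin of simple epithelia, stood at 0.920 in H07, 2.26 in D08, 2.27 in F12, 1.14 in A09, 1.82 in G10, 3.85 in A06, 0.135 in G12 and 2.53 in A11, against a median of 0.108 and a highest level of 3.60 (D05) in the other wells, a log2 fold of 2.49. All keratin-high wells but G12 lay at or above 0.920, so G12 met the keratin rule with almost no Krt19. Krt7, a type II keratin, gave 74 molecules in the keratin-high wells (exact Poisson 95% interval 58.1 to 92.9, counting error only) and 14 in the 40 other wells (7.65 to 23.5). It was at 0 in A11, highest in A09 at 1.96, and under the filter on average level. Of the 7 simple epithelial keratins listed, only Krt8, Krt18 and Krt19 passed the filter.

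Genes of epithelial cell contacts were partly higher. Of 13 listed junction genes that passed the filter, 6 were higher by at least 2-fold and none lower, beside 6.06% of all genes higher. The summed level of the list had a median of 27.6 in keratin-high wells (20.0 to 36.9) and 13.1 in the other wells (5.43 to 31.4), and B05 was the only other well above the keratin-high median. Cldn4, a tight junction claudin, ranged from 0.379 to 6.23 with a median of 1.52 in keratin-high wells and from 0 to 1.93 with a median of 0.192 in the other wells, a log2 fold of 2.21. Cldn6, a claudin of embryonic epithelia, had medians of 3.33 and 0.995 and a log2 fold of 1.54; its top among the other wells, 4.53, was in H05, the well just under the keratin threshold. The tight junction scaffold Tjp1 (1.58), the desmosome-associated membrane protein Perp (1.84), Ctnnd1 (1.37) and Jup (1.17), both catenins of cell contacts, made up the 6 by log2 fold. The adhesion receptors that ES cells also carry were under 2-fold: Cdh1, E-cadherin, had a log2 fold of 0.88 (1.00 without A06) with medians of 2.75 and 1.26, and Epcam 0.09 with medians of 1.69 and 1.67.

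The basement membrane list had 5 higher and no lower genes among 10, beside 6.06% higher and 2.06% lower of all genes. Its sum had a median of 22.8 (20.4 to 34.3) in keratin-high wells and 9.41 (5.91 to 20.6, highest in D02) in the other wells. Itga3, the integrin alpha chain of a laminin receptor, had a median of 0.901 in keratin-high wells, with 0 in A11, and 0.0830 in the other wells, a log2 fold of 2.11. Sparc, a secreted matrix glycoprotein, stood between 3.59 and 10.4 with a median of 5.15 in keratin-high wells and had a median of 0.910 in the other wells. Only C02, at 5.89, lay above the lowest keratin-high well, and the log2 fold was 2.20. Podxl, a sialomucin of the apical surface of epithelia, had medians of 1.39 and 0.0869 and a log2 fold of 2.75, and A09 was highest at 5.39. Pmp22, a membrane protein of myelin and of epithelial junctions, had a log2 fold of 2.98 but was split within the group: D08 held 3.29, F12 3.00, G10 1.52, H07 1.42 and G12 1.41, while A11 held 0.195 and A09 and A06 held 0.

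The annexin and S100 list had the largest fold of summed level after the keratins. Of its 9 genes that passed the filter 8 were higher, beside 6.06% of all genes, and the sum had a median of 48.3 (29 to 66.3) in keratin-high wells and 7.61 in the other wells (4.55 to 126). D02 set the top of the other wells, and the next well held 25.4, under the lowest keratin-high well. Annexins bind membrane phospholipids in the presence of calcium, and S100a10 and S100a11 are binding partners of annexins. Anxa3 stood at 2.43 in H07, 4.00 in D08, 1.82 in F12, 2.12 in A09, 0.833 in G10, 2.64 in A06, 2.29 in G12 and 2.34 in A11. The other wells had a median of 0.147 and a highest level of 1.81, in D02, the only one above the lowest keratin-high well, and the log2 fold was 2.95. Anxa1 had a log2 fold of 2.50, with medians of 6.23 and 0.350, but ranged from 0.659 (A06) to 8.95 (H07) among keratin-high wells. Anxa2 had 2.33, S100a11 2.07, S100a6 2.06 and S100a10 1.79. Only 9.45% of S100a11 molecules came from uniquely matching reads, so its level is uncertain. For Anxa5 the log2 fold of 1.32 was 0.56 without G12, which held 10.4 against 0.546 to 4.18 in the other keratin-high wells, and 2.49 without D02.

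Actin-binding and contractile genes formed the broadest group. Of 25 that passed the filter 18 were higher and none lower, beside 6.06% and 2.06% of all genes. The sum had a median of 177 (127 to 208) in keratin-high wells and 69 (39.9 to 363) in the other wells. Of the other wells, 3 lay above the lowest keratin-high well and D02 alone above the keratin-high median. Tpm1, a tropomyosin that binds along actin filaments, stood at 39.1 in H07, 24.1 in D08, 25.8 in F12, 17.6 in A09, 22.8 in G10, 16.4 in A06, 27.6 in G12 and 21.4 in A11. In the other wells its median was 2.72, with 41.9 in D02 and at most 16.7 in any other, a log2 fold of 2.39. Tagln, an actin-bundling protein abundant in smooth muscle, had medians of 5.09 and 0.412 (log2 fold 1.95), and Cnn2, a calponin, 2.85 and 0.704 (1.71). Plec, the linker of keratin filaments to adhesions (2.09, or 1.24 without A09), Vcl of focal adhesions (1.79), Cald1 (1.78), Myh9, a nonmuscle myosin heavy chain (1.67), and Actn1 (1.53) were also higher by log2 fold. Tmsb4x, which binds actin monomers, had medians of 45.2 and 9.09 and a log2 fold of 1.35. The muscle actins came from few wells: Acta2 held 4.85 in G12 and at most 1.76 elsewhere in the group, and its log2 fold of 1.02 was 0.11 without G12 and 1.66 without D02. Acta1 held 4.01 in G10, and its log2 fold was 1.08 without that well against 1.81 with it. The secreted targets of the YAP and TEAD factors, Ctgf (-0.04) and Cyr61 (0.27), were within 2-fold. So were all 6 genes of that list that passed the filter, beside 6.06% higher and 2.06% lower of all genes. The summed level of the list was still higher, with medians of 12.1 and 4.74 and a log2 fold of means of 0.81. All 8 keratin-high wells lay above the median of the other wells, and 18 other wells lay above the lowest keratin-high well.

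**Figure D3:**
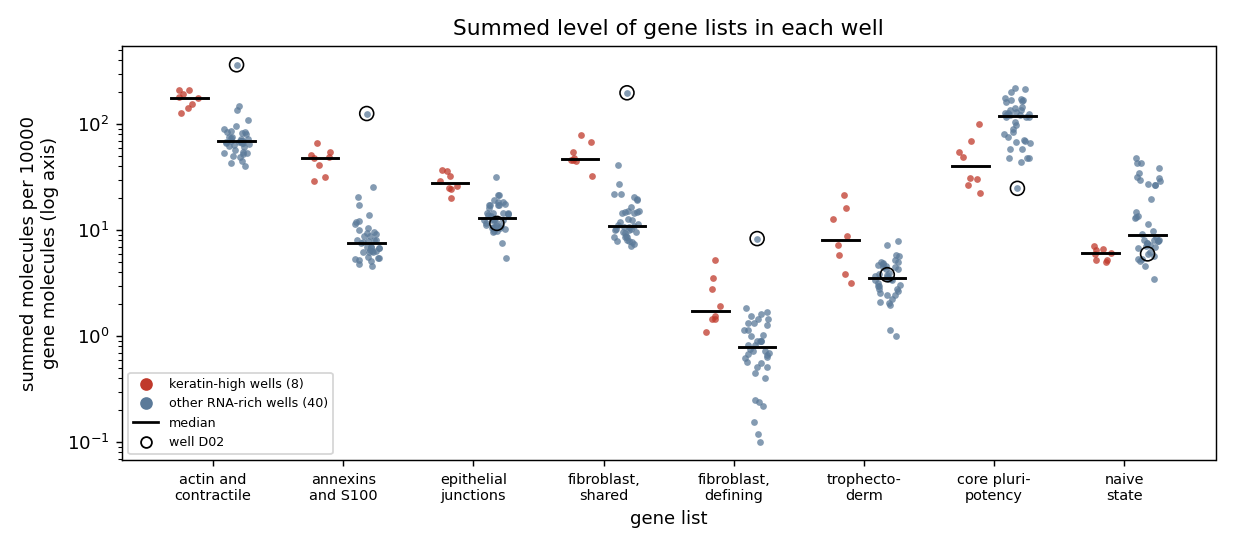
Summed level of 8 gene lists (molecules per 10000 gene molecules, log axis) in each well, with keratin-high wells in red at the left of each pair and other RNA-rich wells in blue at the right; bars are medians and the open circle is well D02. The keratin-high medians are 48.3 for annexins and S100 genes and 40.3 for core pluripotency genes, beside 7.61 and 119 in the other wells.

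Igf2, the fetal growth factor of the insulin family and an imprinted gene, had the largest log2 fold after the genes of the rule, 3.53. It stood at 11.4 in H07, 1.93 in D08, 4.91 in F12, 4.41 in A09, 1.67 in G10, 0.135 in G12 and 8.56 in A11, and no molecule was found in A06. In the other wells the median was 0.173, D02 held 3.61 and no further well exceeded 0.552. The sum was 315 molecules (281 to 352) in keratin-high wells and 93 (75.1 to 114) in the others. So 6 keratin-high wells lay above every other well but D02, and 2 lay within the low range. H19, the noncoding RNA next to Igf2 on chromosome 7, gave 30 and 15 molecules in all, most of the first in G12 (1.68), a well with almost no Igf2. Peg10, an imprinted gene derived from a retrotransposon and required in placenta, was highest in G12 at 14.5. Its log2 fold was 2.43, or 1.56 without G12. Of 14 imprinted genes that passed the filter, Igf2 and Peg10 were higher by at least 2-fold, and Phlda2 (-1.85), Snurf (-1.49) and Meg3 (-1.03, or -0.88 without A09) lower, beside 6.06% higher and 2.06% lower of all genes. Only 0.05% of Snurf molecules came from uniquely matching reads, which leaves its level uncertain.

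Some genes of stress, signalling and transport were higher too. Cryab and Hspb8, small heat shock proteins, had log2 folds of 2.63 and 2.48, and both were at 0 in 1 keratin-high well, Cryab in A09 and Hspb8 in G10. The immediate early and stress list had 5 higher genes of 17, beside 6.06% of all genes: Fosb (1.26), Atf3 (1.26), Klf6 (1.19), Jun (1.12) and Hspb1 (1.04), while Fos was at 0.42. Leaving out 1 well took 4 of them under 2-fold: Fosb was at 0.86 without A11, Atf3 at 0.97 without D08, Jun at 0.75 without G12 and Hspb1 at 0.70 without A09. Its sum had a median of 73.7 in keratin-high wells and 57.8 in the other wells. Tnfrsf12a, the receptor for TWEAK, had medians of 3.17 and 0.498 and a log2 fold of 2.00. The glucose transporter genes Slc2a3 (medians 14.2 and 4.54, log2 fold 1.53) and Slc2a1 (4.04 and 1.35, 1.15, or 0.98 without D08) were higher. The other 12 glycolysis and hypoxia genes that passed the filter were within 2-fold, beside 6.06% of all genes higher. B2m, the light chain of class I histocompatibility molecules, had medians of 3.27 and 0.660 and a log2 fold of 1.33. 2200002D01Rik, a gene without an established name in the files, stood between 1.65 and 4.6 in keratin-high wells and had a median of 0.202 and a highest level of 1.81 (D02) in the others, a log2 fold of 2.81.

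Genes whose levels followed the keratin sum most closely were 2200002D01Rik (Pearson r 0.879), Anxa3 (0.859), Tpm1 (0.816), Itga3 (0.805) and Tnfrsf12a (0.796), over the 48 wells and on a log2(level + 1) scale. The wells share a culture, a chip and the choice of groups, and these values describe them only. Within the 8 keratin-high wells the keratin sum had a Pearson r of 0.41 with Igf2, 0.031 with Krt19, 0.36 with the summed core pluripotency genes, -0.20 with the summed primitive endoderm genes and -0.55 with the summed genes that define fibroblasts, also as descriptions.

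The genes lower in keratin-high wells included many of the pluripotent state. Of all genes 2.06% were lower, or 3.72% of those with a mean of at least 0.5 in the other wells alone. Of 15 core pluripotency genes that passed the filter 6 were lower and none higher. Their sum stood at 26.8 in H07, 69.4 in D08, 100.3 in F12, 30.2 in A09, 54.1 in G10, 49.4 in A06, 22.3 in G12 and 31.1 in A11, against a lowest value of 24.8 (D02), a median of 119 and a highest of 218 in the other wells. All 8 lay below the median of the other wells, and 1 other well, D02, lay below the keratin-high median of 40.3. F12 came closest to the median of the other wells. Dppa5a, whose product binds RNA in pluripotent cells, made up most of the sum: it stood between 10.3 (G12) and 84.3 (F12) with a median of 26 in keratin-high wells, and between 15.4 (D02) and 181 with a median of 92 in the others, a log2 fold of -1.25.

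Tdh, the threonine dehydrogenase on which mouse ES cells depend, had the lowest log2 fold, -2.72. It stood between 0.0758 (G10) and 0.769 (A06) in keratin-high wells and between 0.361 and 16.1, with a median of 1.28, in the others; 39 of the 40 lay at or above the keratin-high median. Tdgf1, the Nodal co-receptor, had medians of 2.45 and 9.21 and a log2 fold of -1.86, and again 39 of 40 lay at or above the keratin-high median. Utf1, a chromatin protein of pluripotent cells (-1.35), the growth factor Gdf3 (-1.48) and Chchd10, a mitochondrial protein (-2.13), were lower too. Nanog gave 19 molecules in keratin-high wells (11.4 to 29.7) and 321 in the others (287 to 358), and the orphan nuclear receptor Esrrb gave 2 (0.242 to 7.22) and 153 (130 to 179), with totals of 868786 and 4020447 gene molecules; both were under the filter. Pou5f1, the POU factor that maintains pluripotency, had medians of 0.874 and 1.99 and a log2 fold of -0.90, or -1.21 without F12. Only 42.2% of its molecules came from uniquely matching reads. Sox2, its partner, had a log2 fold of -0.28, and A09 alone among keratin-high wells was high, at 3.43, close to the top of the other wells (3.44). Without A09 the log2 fold of Sox2 was -1.22. Lin28a was at -0.16.

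Among the lower genes, Zfp42 and Lefty1 owed much of their fold of means to a few very high wells of the comparison. Zfp42, a zinc finger marker of the naive state, lay between 1.74 and 2.82 in the 8 keratin-high wells and between 1.49 and 30.1 in the others, whose median was 3.11. Its log2 fold of means was -1.76 but that of medians -0.30, and 10 of the 40 other wells lay at or below the keratin-high median. The keratin-high wells held Zfp42 within a narrow span at the low end of the range of the other wells. Lefty1, a Nodal inhibitor, likewise had a log2 fold of -1.71 by means and -0.88 by medians, and A09 was the high well of its group at 3.75. Of further lower genes, Trh, which encodes thyrotropin-releasing hormone, reached 36.9 in the others and at most 1.36 in keratin-high wells (log2 fold -2.43). Phlda2, an imprinted gene of placental growth, had medians of 0.261 and 1.78 (-1.85). Upp1, a uridine phosphorylase (-1.82), and Tet1, a methylcytosine dioxygenase (-1.64), were also lower, with medians of 0.582 and 2.35 for Upp1 and of 0.671 and 1.73 for Tet1. Tet1 was the only one of 14 chromatin and DNA methylation genes that passed 2-fold, beside 2.06% of all genes lower. The sum of that list had medians of 41.8 and 55.3 (log2 fold of means -0.32), and all 8 keratin-high wells lay below the median of the other wells.

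**Figure D4:**
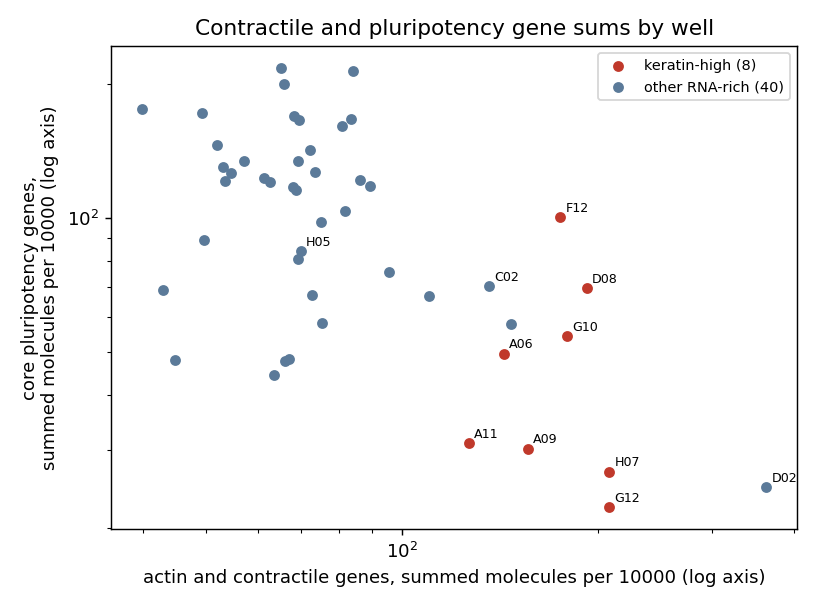
Summed actin and contractile genes against summed core pluripotency genes in the 48 wells, both in molecules per 10000 gene molecules on log axes, with keratin-high wells in red and other RNA-rich wells in blue. The keratin-high wells lie at 127 or more for the contractile sum, and range from 22.3 (G12) to 100.3 (F12) for the pluripotency sum; D02 lies at 363 and 24.8.

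Housekeeping groups differed by less than 2-fold in summed level. None of 77 ribosomal protein genes passed 2-fold, with medians of the sum of 1258 and 1418 (log2 fold of means -0.20). All 8 keratin-high wells lay below the median of the other wells for that sum. None of 28 genes of G2 and mitosis did, and of 23 of G1 and S phase only the cyclin Ccnd1 (-1.02, or -0.89 without H07). Of all genes 6.06% were higher and 2.06% lower. The sums had medians of 57.4 and 66.6 for G2 and mitosis (log2 fold of means -0.03) and of 34.7 and 42.3 for G1 and S (-0.27). Below the median of the other wells lay 6 keratin-high wells for G2 and mitosis and all 8 for G1 and S.

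Transcription factors that define early lineages were sparse and fell in different wells. The molecules given from here on come from totals of 868786 gene molecules in keratin-high wells and 4020447 in the others. Cdx2, a trophectoderm factor, gave 8 molecules in G10, 2 in A09 and 1 in G12, and 2 in all 40 other wells (exact Poisson 95% intervals of the sums 5.49 to 19.7 and 0.242 to 7.22). Gata3, another, gave 11 in A09, 2 in H07 and 1 in D08, and 1 in the other wells (7.65 to 23.5 and 0.0253 to 5.57). Eomes gave 2 molecules in keratin-high wells and 23 in the others, and Tfap2c 6 and 66. Elf5, Tfap2a, Hand1, Plac1 and Tpbpa were at 0 in both groups. Esx1, a placental homeobox gene, gave 6 molecules, all in D08, and 2 in the other wells. The trophectoderm list had 18 of 25 members with a molecule in keratin-high wells. Gata2 and Wnt7b were found only there, Dlx3 only in the other wells, and 6 members in neither group. Of 3 members of the list that passed the filter Peg10 and Slc2a1 were higher, beside 6.06% of all genes. Its sum ranged from 3.18 (H07) to 21.2 (G12), with a median of 7.99, against 1.01 to 7.95 with a median of 3.56 in the other wells, and most of the sum came from Peg10 and Slc2a1.

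For primitive endoderm, the extraembryonic layer facing the blastocyst cavity, the defining factors were near absent. Gata6 gave 0 and 1 molecules, Sox17 and Sox7 0 in both groups, Gata4 2 and 12 and Foxa2 1 and 22. The sum of the list had medians of 14.6 and 6.15. In keratin-high wells Sparc gave 563 and Serpinh1 294 of its 1309 molecules, and in the others 469 and 397 of 2675. Apoe gave 133 and 921 molecules and Fst 15 and 226. Of 5 members that passed the filter, only Sparc and Serpinh1, a collagen chaperone (log2 fold 1.72), were past 2-fold. Both were higher, beside 6.06% of all genes. Dab2, an endocytic adaptor of endoderm, gave 30 and 25 molecules, 23 of the 30 in D08. Of 24 mesoderm and primitive streak genes, 13 had a molecule in keratin-high wells and 7 had none in either group. Only Twist2 was found in keratin-high wells alone, while Mixl1, Mesp1, Lhx1 and Zeb1 were found in the other wells alone. The log2 fold of the sum of the list was 0.0081. Mixl1 gave 0 and 21 molecules, Mesp1 0 and 2 and T 4 and 48, while Tbx20 gave 10 and 2, Msx1 6 and 3, Twist2 3 and 0, Tbx3 19 and 36 and Snai1 19 and 37. D08 alone held 7 of Tbx20, all 6 of Msx1, 13 of Tbx3 and 11 of Snai1, and A09 all 3 of Twist2. By level, Tbx3 and Snai1 were the higher in keratin-high wells, with log2 folds of 0.19 and 0.16 without D08. They were at most 0.83 and 0.73 when another well was left out. Pecam1 gave 0 in keratin-high wells and 36 in the others.

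Feeder fibroblasts were a cell type present in the culture, and their markers were followed in 2 lists. Of 25 genes that define fibroblasts, 14 had a molecule in keratin-high wells and 11, including Thy1, Pdgfra, Prrx1 and Col6a1, were at 0. All 14 were also found in the other wells, and 5 of the 11 had no molecule in either group. Lum, Postn and Fap were at 0 in the other wells and in E02 as well. The summed level ranged from 1.10 (A06) to 5.25 (G12) with a median of 1.74 in keratin-high wells, and from 0.101 to 8.31 (D02) with a median of 0.791 in the other wells; E02, left out of the comparison, held 30.5. Col1a1 gave 17 molecules, 15 of them in G12, and 4 in the other wells, and Col1a2 gave 19, 14 of them in G12, and 14. Dcn gave 7 molecules, all in A11, and 2. Col5a1 gave 33 molecules, in 7 of the 8 keratin-high wells with 13 in A09, and 19 in the other wells, a log2 fold of 2.09 at levels under the filter. Lox gave 9 molecules, 6 of them in A06, and 3 in the other wells, Bgn 12 and 9 and Loxl1 11 and 8. Fstl1 gave the most molecules of any member, 77 of 205 in keratin-high wells and 196 of 373 in the others. It was the only member that passed the filter, with a log2 fold of 0.60. The 20 genes that fibroblasts share with other cells summed to a median of 46.8 in keratin-high wells (32.1 to 78.4, highest in G12). In the others the median was 11 (7.09 to 197, highest in D02). Of 11 that passed the filter 7 were higher by at least 2-fold and none lower, beside 6.06% and 2.06% of all genes. Among the 7 were Sparc, S100a6, Thbs1, Lgals1 and Vim. Vim, the mesenchymal intermediate filament, had a log2 fold of 1.11 by means and 0.92 by medians. It was highest in the group in G12 at 10.8, and its log2 fold was 0.36 without G12 and 1.81 without D02. Lgals1, a galectin, was high throughout, from 8.44 to 40.9 with a median of 16.4, against a median of 3.20. D02 had 8 of the 25 defining genes, among them Col5a2 (8 molecules), Prrx1 and Fbn1 (7 each), and none of Col1a1, Col1a2 or Col3a1. The part of fibroblast RNA in the annexin, contractile and matrix differences was not tested. The sums of fibroblast-defining genes, of annexins and S100 genes, and of contractile genes are given here in that order. H07 held 1.92, 48.9 and 208, D08 1.55, 66.3 and 192, and F12 1.46, 41.3 and 175. A09 held 2.78, 51.3 and 156, G10 1.44, 31.4 and 179, and A06 1.10, 47.7 and 143. G12 held 5.25, 54.1 and 208, and A11 3.503, 28.99 and 127. D02, of the other wells, held 8.31, 126 and 363, the highest of the compared wells for each sum.

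The 8 wells were far from uniform, as the heat map of single wells shows. H07, the richest in keratin, led in Igf2, Lgals1 (40.9) and Tpm1 and had the highest sum of G2 and mitosis genes, 120.2. It also held 3.09 of Trap1a, an X-linked tumour rejection antigen gene, and 2.01 of Ncam1, a neural adhesion molecule. D08 was highest in Anxa2, Anxa3, S100a10 and S100a11, and held 62 molecules (a level of 4.00) of the interferon-induced chemokine Cxcl10, whose median in the other wells was 0. F12 held the most Dppa5a and 2.00 of Tns4, a tensin, against at most 0.135 in any other RNA-rich well. A09 held 16.3 of Id2, a helix-loop-helix inhibitor, as well as 6.2 of Phlda1, the highest Gata3 and the highest Sox2 of the group; the log2 fold of Id2 was 1.74 with A09 and 0.80 without. G10 held the most Cdx2 and Acta1. A06 had no Igf2 and no Pmp22 but the highest Krt19, and held 2.64 of Myc and 3.74 of Fgfbp1, a secreted carrier of fibroblast growth factors. G12 had the highest Peg10, Vim, Anxa5 and Acta2 and the lowest Krt19 of the group. A11 had the highest Cldn4 and Perp, and 2.34 of the receptor kinase Axl. These leading genes of single wells were picked after their values were seen.

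**Figure D5:**
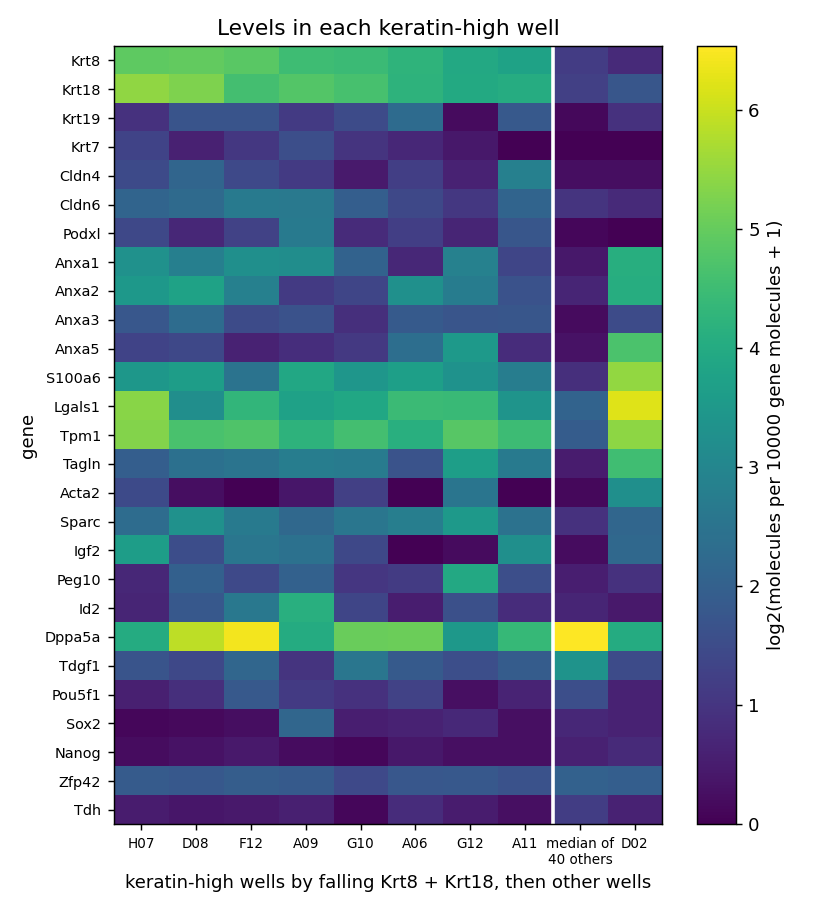
Levels of genes named in the text, as log2(molecules per 10000 gene molecules + 1), in the 8 keratin-high wells in order of falling Krt8 + Krt18 (left of the white line), then the median of the 40 other RNA-rich wells and well D02. Tpm1 is high in all 8, from 16.4 to 39.1, while Igf2 runs from 0 in A06 to 11.4 in H07 and Peg10 is highest in G12 at 14.5.

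The promoter windows of the genes that differed held the searched motifs at these shares. RefSeq windows were found for 127 of 172 higher genes (Krt8 and Krt18 left out) with 164 windows, for 38 of 59 lower genes with 48 windows, and for 2098 of all 2871 genes with 2567 windows. AP-1 (TGANTCA, which reads the same on both strands apart from its middle base) was in 12.8% of windows of higher genes, 8.33% of lower genes, 4.44% of all genes that passed the filter and 7.81% of all 32851 windows of the table. These were 19 higher genes, among them Anxa2 and 2200002D01Rik shown above, Cldn4, Itga3, Cald1, Lmna, Plaur and S100a11. The CArG box was in 7.32% of windows of higher genes, 2.08% of lower genes, 1.48% of all genes that passed the filter and 1.63% of all windows. The 12 higher genes were Cnn2 and Igf2 shown above and Acta1, Anxa5, Bet1l, Fermt2, Glipr2, Myadm, Rcn2, Rnd3, Rnf128 and Vcl. The TEAD motif (GGAATG, both strands) was in 15.2%, 18.8%, 11.3% and 14.7%, and the sequence TATAAA on either strand was in 8.54%, 14.6%, 7.40% and 13.6% of the same 4 sets. The Krt8 and Krt18 windows held neither AP-1, TEAD nor CArG, and Krt8 held TATA. A match says only that these letters stand in the window, and nothing was measured at these sites.

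Repeat-derived molecules were counted apart, and their levels are per 10000 repeat molecules of the well. Of 262 repeat types with an average level of at least 1, 18 were higher (6.87%) and 8 lower (3.05%) by at least 2-fold, and the groups overlapped for each of them. Beside the simple repeat r_(CCTG)n (log2 fold 1.98), the largest folds were those of endogenous retroviruses: r_RLTR1B-int had medians of 23.7 and 3.66 (log2 fold of means 1.88), with ranges of 4.56 to 45.4 in keratin-high wells and 0.845 to 34.3 in the others, and r_LTRIS3 had medians of 7.75 and 1.28 (1.75). r_MuRRS4-int (1.67) and r_ETnERV3-int (1.61) followed. The lower ones began with r_ERVB4_1C-LTR_Mm (-1.80), r_RLTR13G with medians of 0.919 and 4.35 (-1.38) and r_RLTR9E with 1.62 and 3.70 (-1.36). r_MMETn-int had medians of 10.9 and 20.2 (-1.04). The summed B1 to B4 short elements had a log2 fold of -0.32 and the L1Md elements 0.07.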

How the data were processed

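RNA of single R1 cells was counted with molecular tags. The authors deposited molecule counts per gene and well, and the column of reads with unique matches that accompanies them is also a count. Bowtie and the build mm10 (GRCm38) are named, with no version, in the submitters' processing notes. Multiply matching reads are included and placed at the exonic hit nearest the 5' end, per the file headers, and gave 26.7% of gene molecules. Gene molecules exclude 96 spike-ins and 1554 repeat types. Each of the 96 columns belongs to both library forms of its barcode. Totals of the 48 compared wells ran from 51390 to 155134 gene molecules, and no doublet caller was run.

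Levels are molecules per 10000 gene molecules of the well, and group means weight wells equally. Log2 folds of means carry 0.1 added to each, so folds of low genes are understated. Genes entered at an average level of 0.5 and were called at 2-fold. Poisson intervals (95%) and zeros cover counting error only. The wells, markers and gene lists were chosen with earlier results of these data known. Genes named were the 20 largest and 15 smallest folds that stayed past 2-fold without their top well, leading members of each list, the 5 closest correlates of the keratin sum and defining markers; the lineage factors counted by molecule and the leading genes of single wells were added after their values were seen. Some genes that met this rule are not reported here. Because 1 culture is 1 sample, no test was made. The script for the fold rule was checked on simulated data. RefSeq windows (GRCm38.p6) were matched by symbol, and of several starts each was searched. Alternatives changed the normalization, filters, thresholds and wells. Tools were Python 3.11.15, numpy 2.4.6, pandas 2.3.3, scipy 1.17.1 and matplotlib 3.10.9.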

Additional observations from a re-analysis of the deposited data

Results flagged for a closer look

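Among the 8 keratin-high wells, 36 quantities were checked for a highest or lowest well far from the others, by the gap to the nearest well over the range of the group. In 8 of them 1 well stood apart. The limit used flags about 1 in 20 groups of independent, normally distributed values. These quantities come from the same 8 wells, and mitochondrial RNA entered both as a sum and as a percent. The number of flags can therefore not be set against that rate. H07 held 120.2 per 10000 gene molecules of G2 and mitosis genes, and the next keratin-high well 78.4. H07 also held 4.10 of neural genes, with Ncam1 at 24 molecules, and the next well 1.75. G12 held 152 of immediate early and stress genes, of which Hsp90aa1 made up 109, and the next well 85.9. G12 was lowest for ribosomal protein genes at 946, with the next well at 1169. A09 held 31.5 of primed state and Nodal genes, of which Id2 made up 16.3. D08 held 2.58 of mesoderm genes, with 13 molecules of Tbx3 and 11 of Snai1. A11, the well with the fewest gene molecules, held 1598 of mitochondrially encoded RNA, with the next well at 1050; the same measure as a percent of its gene molecules was 16%. The causes were not tested.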

How the results depend on the processing

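No paired analysis was possible because each column holds both library forms of its barcode and no test was made. Counts of genes at least 2-fold higher and lower (174 and 59) depended on the treatment of low levels: 93 and 19 with 0.5 added in place of 0.1, 40 and 10 with an average level of at least 2, and 549 and 324 with no filter. With medians over wells they were 252 and 96. With a mean of at least 0.5 in the other wells alone, an alternative chosen after seeing the data, they were 83 and 105. Leaving out 1 keratin-high well at a time gave 158 (without G12) to 200 higher and 62 to 83 lower genes, 2 to 3 genes with groups that did not overlap, 10 to 12 lists past 2-fold by summed level, and a ratio of highest to lowest core pluripotency sum of 3.11 (without F12) to 4.50. With spike-in normalization no gene kept the groups apart (0), Krt8 and Krt18 included. A keratin threshold of 40 left 5 keratin-high wells, 4 genes with groups apart and 7 lists past 2-fold in place of 12. At that threshold log2 folds turned for Anxa5 (-0.16), Vim (-0.23), Col1a1 (-0.041), Dcn (-0.44) and H19 (-0.021), and the fold of Dcn also turned without A11 (-0.063, against up to 1.50 when another well was left out). By construction, that threshold moves A06, G12 and A11 into the other group, which then holds 43 wells. For the other settings the cause was not tested. Without D02, also left out after seeing the data, 186 genes were higher (170 of the 174 among them) and 65 lower (56 of the 59). Within plate columns 6 to 12, chosen likewise, 198 were higher (160 shared) and 83 lower (52 shared), and 10 genes kept the groups apart. That setting kept 25 other wells, and D02 and H05 were not among them. Depth limits what is said of Krt7, Nanog, Esrrb and the lineage factors, which rest on few molecules.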
